A study of Homo sapiens with 8 samples.

Results

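The genes examined were the 8 human SMAD genes SMAD1, SMAD2, SMAD3, SMAD4, SMAD5, SMAD6, SMAD7 and SMAD9, out of 18457 protein-coding genes that could be scored in the same way. They were listed by name as a gene family, with earlier results of these data known. Every acetylation peak inside 1 of these genes or within 10 kb of either end was taken from the deposited peak tables. The tables come from chromatin immunoprecipitation followed by sequencing (ChIP-seq) of KGN, an established cell line from a human granulosa cell tumour of the ovary, described in the labels as granulosa cells of passages 5 to 8. Acetylation of lysine 9 of histone H3 (H3K9ac) and of lysine 16 of histone H4 (H4K16ac) was profiled in untreated control cells and in cells given 1 mM butyrate for 6 h. Butyrate, a short-chain fatty acid, is known as an inhibitor of histone deacetylases. Each condition had 1 library per antibody, so values of the conditions are set side by side with no test and no replicate error, and nothing here separates an effect of butyrate from a difference between 2 libraries.

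SMAD proteins carry signals of the transforming growth factor beta (TGF-beta) family from receptors at the cell surface to the nucleus. SMAD2 and SMAD3 are phosphorylated by receptors for TGF-beta and activin, SMAD1, SMAD5 and SMAD9 by receptors for bone morphogenetic proteins (BMPs), and both sets bind SMAD4, the common partner, before they act on genes. SMAD6 and SMAD7 are inhibitory members, known targets of the pathway that feed back on the receptors. Granulosa cells are known to use these routes, since activin, BMPs and anti-Müllerian hormone all act on them.

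The DNA at the starts that the results turn on is shown first. Each sequence is the 250 bases upstream of a RefSeq transcript start on GRCh38.p14, read 5′ to 3′ on the strand of the gene. SMAD6 and SMAD3 (main start) were chosen because their promoters carried the most H3K9ac fragments of the family with butyrate. The capitals mark GTCTAGAC, the palindromic SMAD-binding element, in SMAD6, and GGCGCC, a palindrome known as a GC-rich element of BMP targets, in SMAD3.
SMAD6, chr15:66701986-66702235, plus strand: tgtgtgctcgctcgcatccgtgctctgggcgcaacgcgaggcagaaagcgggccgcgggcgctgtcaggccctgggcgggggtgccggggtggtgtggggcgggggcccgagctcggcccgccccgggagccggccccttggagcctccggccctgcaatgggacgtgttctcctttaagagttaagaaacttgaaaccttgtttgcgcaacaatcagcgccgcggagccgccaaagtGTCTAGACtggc
SMAD3 main start, chr15:67065352-67065601, plus strand: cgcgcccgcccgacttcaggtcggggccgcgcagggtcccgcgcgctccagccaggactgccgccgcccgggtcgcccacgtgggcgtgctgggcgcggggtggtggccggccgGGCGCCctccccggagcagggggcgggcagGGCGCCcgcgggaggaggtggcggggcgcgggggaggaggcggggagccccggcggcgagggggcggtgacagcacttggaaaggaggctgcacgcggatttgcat
The next pair lies at starts inside the genes, 60.1 kb into SMAD3 and 8.16 kb into SMAD7. They are shown because an H3K9ac peak of the butyrate list covered part of each sequence and no control H3K9ac peak did. Here the capitals mark the bases under that butyrate H3K9ac peak.
SMAD3 inner start, chr15:67125492-67125741, plus strand: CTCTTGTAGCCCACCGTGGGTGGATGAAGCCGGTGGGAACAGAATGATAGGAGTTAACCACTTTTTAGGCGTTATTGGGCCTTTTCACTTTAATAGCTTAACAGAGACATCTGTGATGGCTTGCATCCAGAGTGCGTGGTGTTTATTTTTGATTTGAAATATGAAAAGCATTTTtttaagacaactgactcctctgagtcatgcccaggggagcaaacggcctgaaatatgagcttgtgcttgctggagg
SMAD7 inner start, chr18:48942808-48943057, minus strand: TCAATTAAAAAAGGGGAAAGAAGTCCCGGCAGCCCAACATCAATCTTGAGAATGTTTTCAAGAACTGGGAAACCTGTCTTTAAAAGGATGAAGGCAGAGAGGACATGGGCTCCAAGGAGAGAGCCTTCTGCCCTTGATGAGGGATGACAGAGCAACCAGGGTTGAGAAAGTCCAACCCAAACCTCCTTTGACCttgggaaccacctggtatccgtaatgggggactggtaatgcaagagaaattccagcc

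The main SMAD3 window was 80.8% G and C with 36 CpG pairs, and the SMAD6 window 68% with 25, against medians of 62% and 16 over 22155 RefSeq windows of this length. The inner windows were poorer in CpG, with 44.8% G and C and 5 CpG in SMAD3 and 48.4% and 2 CpG in SMAD7. The 1 GTCTAGAC of SMAD6 began 12 bases before the start. This element was found in 46 of all windows (0.208%) and in no other window of a SMAD gene. The main SMAD3 window held 2 copies of GGCGCC, a motif present in 20.7% of all windows. Both inner windows lacked both motifs, and also GTCTG and AGCCAGACA, searched on both strands and held by 37.3% and 0.23% of all windows. GTCTG is contained, on the other strand, in AGCCAGACA. These matches describe the letters only, since binding of a SMAD protein was not measured.

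A peak was counted as a promoter peak if it reached within 1 kb of the RefSeq start or of the start in the authors' columns, as intragenic if it overlapped the gene but reached no such window, and as flanking otherwise. Fold, p and q of a peak are the values of the authors' peak caller. Fold was read as the ratio of fragments over the summit to a local background, with 1 added to each. In the butyrate H4K16ac list the fragments entered this ratio scaled by 0.897. The number of fragments at each summit was recovered from fold and p and is given with a 95% exact Poisson interval, which covers counting error only. The H3K9ac lists held 22215 control and 79356 butyrate peaks, and the H4K16ac lists 73586 and 33752. All H3K9ac peaks had a q of 0.05 or less, whereas the H4K16ac lists reached a q of 0.304 in control and 0.621 with butyrate, and only 29141 and 381 of their peaks had a q of 0.05 or less. The lowest background, which scales with depth and fragment length, was 2.09 and 2.73 fragments in the H3K9ac lists and 1.63 and 2.09 in the H4K16ac lists. The IgG control lists held 6 and 3 rows, none of them at a SMAD gene. Over all genes, 58.1% had an H3K9ac promoter peak in control, 67.8% with butyrate and 9.83% with butyrate alone. Of 10 granulosa cell markers scored, 3 had an H3K9ac promoter peak in control and 5 with butyrate, while NR5A1, FSHR, CYP19A1, AMH and WT1 had none in either. Markers of theca and stroma had such a peak at 0 of 5 genes in control and 4 with butyrate, of endothelium at 0 and 2 of 4, and of blood at 0 and 1 of 4. Epithelial markers had one at 1 of 2 genes in both libraries, and oocyte markers at 2 of 4 in both. Their part in the results below was not tested.

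By presence of an H3K9ac promoter peak the SMAD genes did not differ between the 2 libraries. The same 7 genes, all but SMAD9, carried an H3K9ac peak at the promoter in both libraries. Over all genes the share with such a peak was 58.1% in the control list, 67.8% in the butyrate list and 57.9% in both. No SMAD gene had one with butyrate alone, as 9.83% of all genes did, or in control alone, as 0.19% did.

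Of the BMP-regulated members, SMAD1 (chromosome 4, 145480770 to 145559176, plus strand) had 26 fragments (17.0 to 38.1) at its promoter summit in control and 29 (19.4 to 41.6) with butyrate. Its peak was 1491 bp wide in control and 2204 bp with butyrate. SMAD5 (chromosome 5, 136132845 to 136182733, plus strand) had 28 fragments (18.6 to 40.5) in control and 34 (23.5 to 47.5) with butyrate. The fold at SMAD5 was lower with butyrate, 4.64 against 9.28, and the local background in that fold was 6.55 fragments against 2.13. The SMAD5 peak began at 136132386 in control and at 136132892 with butyrate, so that all 250 bases upstream of the start were under the control peak and none under the butyrate peak. SMAD9 (chromosome 13, 36844831 to 36920854, minus strand) had no peak of either mark in any library. Its only RefSeq window, upstream of a transcript start 0.616 kb inside the gene, was 78.4% G and C with 39 CpG.

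Among the TGF-beta and activin members, SMAD2 (chromosome 18, 47808957 to 47930872, minus strand) had 26 fragments (17.0 to 38.1) at its promoter summit in control and 31 (21.1 to 44.0) with butyrate. SMAD3 (chromosome 15, 67065602 to 67195169, plus strand) had 34 (23.5 to 47.5) and 47 (34.5 to 62.5), the latter being the highest value of the family. Its promoter peak, which covered all of the GC-rich window printed above in both libraries, was 3154 bp wide in control and 4081 bp with butyrate. The common partner SMAD4 (chromosome 18, 51030213 to 51085042, plus strand) had 31 fragments (21.1 to 44.0) and 35 (24.4 to 48.7). A single SMAD4 control peak of 2239 bp stood where the butyrate list had a pair of 873 and 1565 bp.

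The inhibitory SMAD6 (chromosome 15, 66702236 to 66782849, plus strand) had a pair of promoter peaks in each library, and at the stronger one 36 fragments (25.2 to 49.8) in control and 45 (32.8 to 60.2) with butyrate. The gap inside the pair lay across the start, with 65 of the 250 bases printed above under a peak in control and 116 with butyrate. SMAD7 (chromosome 18, 48919853 to 48950965, minus strand) was the 1 member with fewer fragments at its strongest promoter summit with butyrate, 27 (17.8 to 39.3) against 34 (23.5 to 47.5). At all 7 genes the intervals of the 2 libraries overlapped. The summits compared lay at different bases, as at SMAD3, 1.74 kb from the start in control and 0.818 kb with butyrate. Divided by the lowest background of its list, the summit was higher with butyrate at SMAD3 alone, at 17.2 against 16.3 times, and lower at the other 6, from 16.5 against 17.2 times at SMAD6 to 9.90 against 16.3 times at SMAD7. This scaling shifts all genes by 1 common factor, so the direction of such small differences depends on it.

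**Figure D1:**
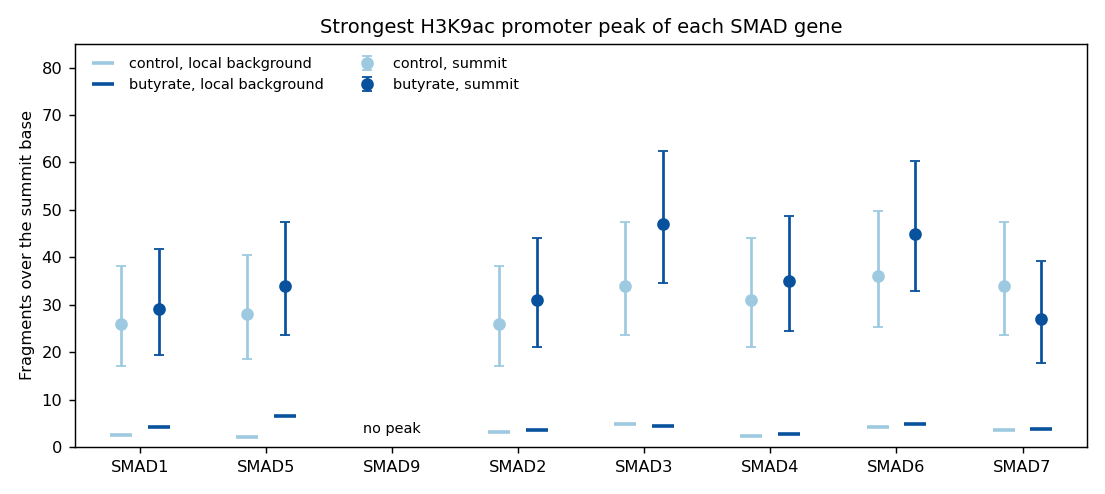
Fragments over the summit base of the strongest H3K9ac promoter peak (y axis) of each SMAD gene (x axis), 1 library per point, with exact 95% Poisson intervals as bars and the local background of the peak as short lines. The intervals of control and butyrate overlap at all 7 genes with a peak, and the SMAD5 background is 6.55 fragments with butyrate against 2.13 in control. The control and butyrate summits of a gene lie at different bases.

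H4K16ac promoter peaks were present at 3 SMAD genes in control (20% of all genes) and at none with butyrate (4.91%). The 3 genes with a control peak alone (17.8% of all genes) were SMAD7, SMAD2 and SMAD5. Their −log10 q was 1.61, 1.12 and 0.588, and their summits held 9, 9 and 7 fragments. Only the SMAD7 peak had a q of 0.05 or less. No SMAD gene had an H4K16ac promoter peak with butyrate alone (2.71% of all genes) or in both libraries (2.21%).

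Inside the genes the H3K9ac lists differed far more. The SMAD genes held 11 intragenic H3K9ac peaks in control and 99 with butyrate, covering 4884 and 76472 bp. Of the 99 peaks, 91 lay in SMAD3, SMAD6 and SMAD7 and 8 in the other members. Of the 11 control peaks, 10 overlapped a butyrate peak, in 2 cases a promoter peak, and 7 of the 99 butyrate peaks overlapped an intragenic control peak. A single butyrate peak in SMAD2 covered 2 control peaks. At least 1 intragenic H3K9ac peak was present in 6 members in control (21.2% of all genes) and in 5 with butyrate (52.3%). Such peaks were more numerous with butyrate at 4 members, SMAD2, SMAD3, SMAD6 and SMAD7, and at 47.5% of all genes. They were fewer at SMAD5 alone, as at 3.33% of all genes. The member median was 1 peak in control and 4 with butyrate, against medians of 0 and 1 over all genes.

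SMAD6 held 3 intragenic H3K9ac peaks in control and 41 with butyrate, and the share of the gene under them was 0.917% and 37.6%. In the butyrate list 32 genes (0.173% of all, SMAD6 included) had at least as many intragenic peaks, and 241 (1.31%) at least this share. The rank by number does not allow for gene length, and SMAD6 spans 80.6 kb. The 3 control peaks lay 68.7, 72.0 and 77.9 kb from the start, and all 3 overlapped butyrate peaks. The strongest of the 41, chr15:66762520-66764221, 60.9 kb into the gene, had 30 fragments (20.2 to 42.8) and a −log10 q of 10.2. The butyrate peaks, promoter peaks included, followed each other closely, with a median gap of 597.5 bp over 42 gaps, 29 of them under 1 kb, and the longest gap was 6075 bp. The authors' columns held no gene entry for 38 of the 41, called 1 intergenic and placed 2 in the last exon of SMAD6.

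SMAD3 held 2 intragenic H3K9ac peaks in control and 33 with butyrate, covering 0.543% and 20.2% of the gene. In the butyrate list 58 genes (0.314%, SMAD3 included) had at least as many peaks, and 1097 (5.94%) at least this share. Of the 33, 29 were placed in intron 1 and 4 in intron 5 by the authors' columns. The strongest, chr15:67107303-67108708, 42.4 kb from the start in intron 1, had 25 fragments (16.2 to 36.9), a fold of 5.60 and a −log10 q of 10.6. A pair of peaks with 24 and 25 fragments stood on both sides of the inner start at 60.1 kb, the first of them covering 174 of the 250 bases printed above. The windows upstream of the other inner starts, at 33.1, 72.4 and 100.9 kb, had no base under an H3K9ac peak in either library. The peaks were spaced less evenly than in SMAD6, with a median gap of 931 bp, promoter peak included, and a longest gap of 17364 bp.

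SMAD7, the shortest member at 31.1 kb, held 1 intragenic H3K9ac peak in control and 17 with butyrate. These covered 4.03% and 50.5% of the gene. In the butyrate list 58 genes (0.314% of all, SMAD7 included) reached that share, and 332 (1.8%) that number of peaks. Of the 17 peaks, 13 lay in the last intron, 3 in intron 2 and 1 in the 3′ untranslated region by the authors' columns. The median gap, promoter peaks included, was 498.5 bp. The strongest, chr18:48923139-48923508, 27.6 kb from the start, had 24 fragments (15.4 to 35.7), and 193 of the 250 bases upstream of the inner start were covered with butyrate and none in control. The peak heights of the 3 genes were alike, with median summits of 16 fragments in SMAD3, 16 in SMAD6 and 14 in SMAD7.

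**Figure D2:**
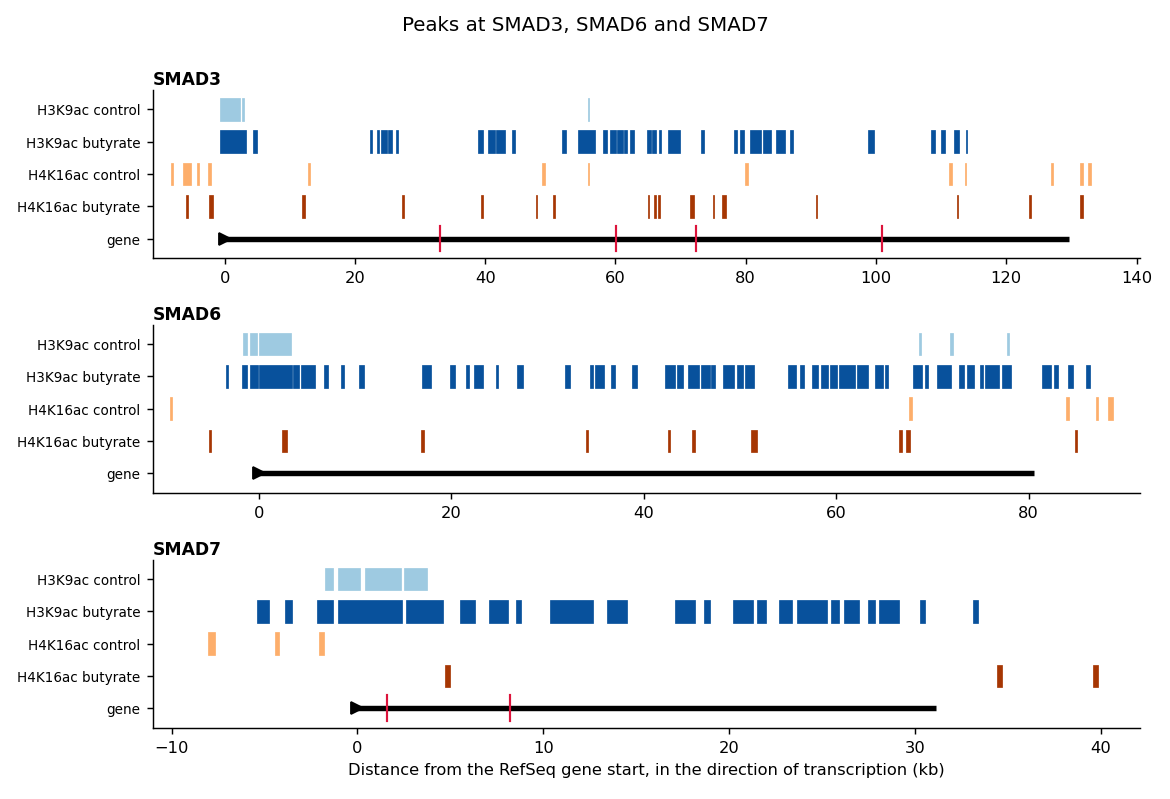
Peaks of the 4 histone libraries along SMAD3, SMAD6 and SMAD7, by distance from the RefSeq start in kb (x axis), with 1 row per library, the gene as a black line with an arrowhead at its start, and red ticks at RefSeq starts over 1 kb inside the gene. The butyrate H3K9ac row holds 33, 41 and 17 intragenic peaks where the control row holds 2, 3 and 1.

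The other members had fewer intragenic H3K9ac peaks with butyrate than SMAD3, SMAD6 and SMAD7. SMAD2 held 3 in control, with summits within 3.49 kb of the start, and 7 with butyrate. Of the 7, 3 lay at the same end in intron 1 and 4 in intron 2 between 36.4 and 42.6 kb. At least as many were held by 8.52% of all genes in the butyrate list, SMAD2 included. SMAD4 held 1 in each library, at 1.44 kb in control and at 52.6 kb with butyrate. SMAD5 held 1 in control, 2.34 kb from its start, and none with butyrate. SMAD1 and SMAD9 had none. No BMP-regulated member thus had an intragenic H3K9ac peak in the butyrate list, in which only 52.3% of all genes held one.

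**Figure D3:**
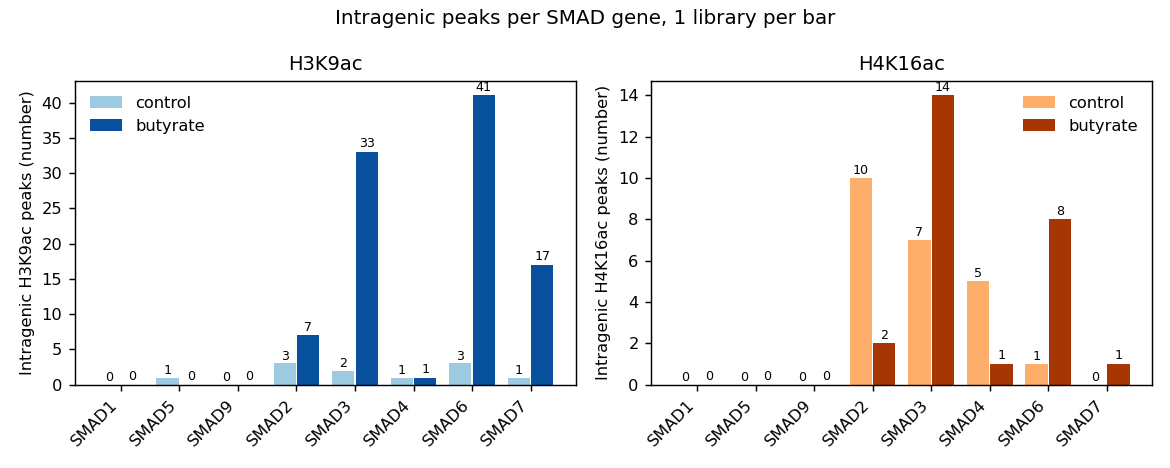
Number of intragenic peaks (y axis) per SMAD gene (x axis) for H3K9ac (left) and H4K16ac (right), 1 library per bar, with the count above it. SMAD3, SMAD6 and SMAD7 hold 91 of the 99 butyrate H3K9ac peaks, and the H4K16ac counts of SMAD2 and SMAD4 are lower with butyrate.

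The butyrate H3K9ac list is 79356 peaks long and the control list 22215, and the longer list holds weaker peaks. When both lists were cut to their 22215 peaks of highest −log10 q, the intragenic counts were 9 against 2 at SMAD3 and 10 against 3 at SMAD6. The difference ended at SMAD7, with 1 peak in each list, and turned at SMAD2, with 1 with butyrate against 3 in control. Over all genes the cut lists gave more intragenic peaks with butyrate at 10.1% and fewer at 13%. At SMAD genes they gave more at SMAD3 and SMAD6 and fewer at SMAD2 and SMAD5. Among peaks of a fold of 5 or more, SMAD3 and SMAD6 kept 3 butyrate peaks each and no control peak, and SMAD7 had none.

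The width of the H3K9ac promoter peaks in control and the intragenic share with butyrate were then set side by side, a comparison chosen after the values were seen. Control promoter peaks covered 1491 bp at SMAD1, 1636 bp at SMAD5, 2237 bp at SMAD2 and 2239 bp at SMAD4. The intragenic shares of these genes with butyrate were 0%, 0%, 3.24% and 0.569%. SMAD3, SMAD7 and SMAD6 had the widest control promoter cover, at 3154, 3545 and 4063 bp, and the highest shares, at 20.2%, 50.5% and 37.6%. Over all genes the median butyrate share was 0% for the 7732 genes with no control promoter peak, 1.25% for the 4757 with 1000 to 2000 bp, 2.28% for the 2420 with 2000 to 3000 bp and 4.53% for the 962 with 3000 bp or more. SMAD3, SMAD6 and SMAD7 were above the upper quartile of that last class, 13.9%.

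**Figure D4:**
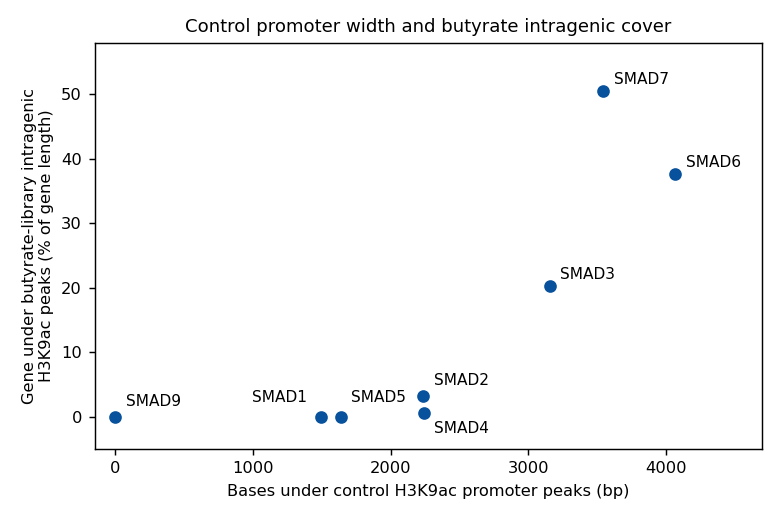
Bases under control H3K9ac promoter peaks (x axis, bp) against the share of the gene under butyrate-list intragenic H3K9ac peaks (y axis, %), 1 point per SMAD gene. The 3 genes with over 3000 bp of control promoter cover have shares of 20.2% to 50.5%, and the other 5 have 3.24% or less.

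Intragenic H4K16ac did not follow 1 direction over the family, with 23 peaks in control and 26 with butyrate and 1 site in both lists. Such a peak was present in 4 members in control (46.3% of all genes) and 5 with butyrate (35.1%). Peaks were more numerous with butyrate at SMAD3 (7 in control, 14 with butyrate), SMAD6 (1 and 8) and SMAD7 (0 and 1), as at 11.4% of all genes. They were fewer at SMAD2 (10 and 2) and SMAD4 (5 and 1), as at 37.8% of all genes. SMAD1, SMAD5 and SMAD9 had none. The 14 peaks of SMAD3 were matched or exceeded by 131 genes (0.71%, SMAD3 included) in the butyrate list. The member median was 0.5 peaks in control and 1 with butyrate, against 0 and 0 over all genes.

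These H4K16ac peaks were weak. Their median −log10 q was 1.12 in control and 0.372 with butyrate, and the median summits held 8 and 10.5 fragments. A q of 0.05 or less was reached by 9 of the 23 control peaks and none of the 26 butyrate peaks, which ends the excess at SMAD3, SMAD6 and SMAD7. Both lists were also cut to their 33752 peaks of highest −log10 q. The counts were then 14 with butyrate against 3 in control in SMAD3, and 8 against 0 in SMAD6. This cut kept the whole butyrate list, down to a −log10 q of 0.20704, but control peaks only down to 1.1985. The larger excess thus came from leaving out control peaks, some of them stronger by q than butyrate peaks that were kept. The same cut gave more peaks with butyrate at 19.4% of all genes and fewer at 23.5%. The peak at 66.8 kb in SMAD6 was the strongest of its 8, with 15 fragments, a fold of 3.99 and a −log10 q of 1.30. In SMAD2, the 10 control peaks lay from 47.0 to 118.4 kb from the start, with folds from 2.35 to 3.68.

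**Figure D5:**
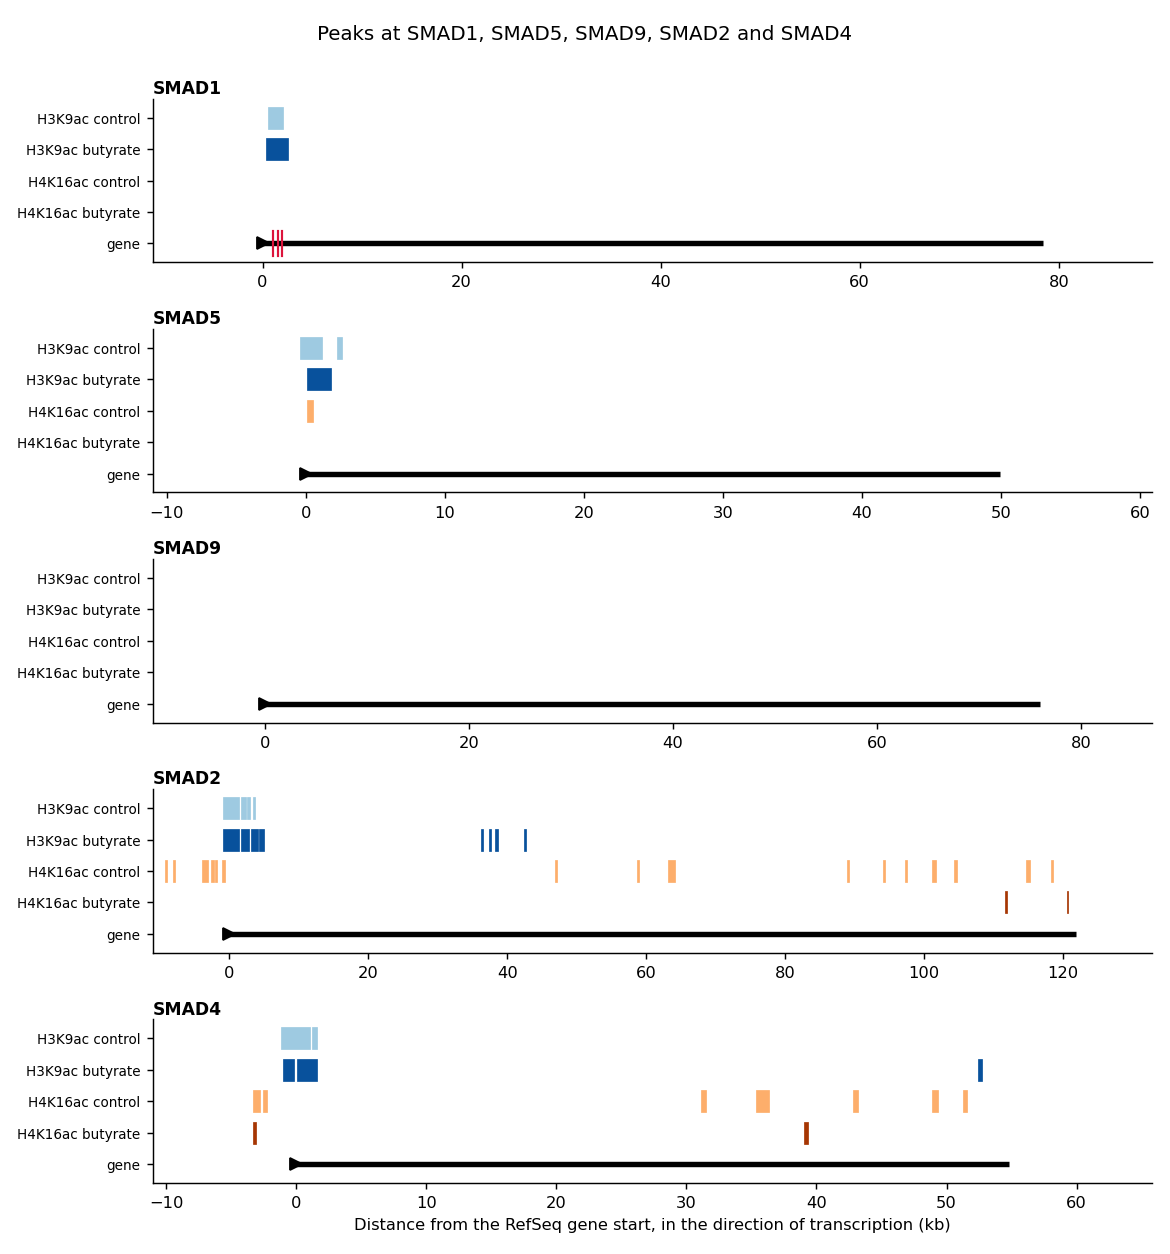
Peaks of the 4 histone libraries along SMAD1, SMAD5, SMAD9, SMAD2 and SMAD4, by distance from the RefSeq start in kb (x axis), with 1 row per library, the gene as a black line with an arrowhead at its start, and red ticks at RefSeq starts over 1 kb inside the gene. H3K9ac peaks cluster at the starts, SMAD9 has no peak, and the 10 control H4K16ac peaks inside SMAD2 stand against 2 with butyrate.

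The overlap of the marks at these genes was then counted. In control, 3 of 45 H4K16ac peaks at the SMAD genes overlapped an H3K9ac peak by at least 1 bp, against 5.6% over the whole list. These were the promoter peaks of SMAD5 and SMAD2 and a site 55.9 kb into SMAD3, where the peaks of both marks began at the same base, chr15:67121319. With butyrate it was 10 of 34, against 11.9% over the whole list, 5 of them in SMAD3 and 5 in SMAD6. Intragenic H3K9ac peaks of the butyrate list covered 20.2% of SMAD3 and 37.6% of SMAD6. Whether the overlap exceeded what this dense cover alone would give was not tested. When both marks were limited to a q of 0.05 or less, the butyrate overlap was 0.

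Other genes of the pathway, from lists of known members, carried H3K9ac at most promoters, as did 58.1% of all genes in control and 67.8% with butyrate. Promoter peaks were listed at 10 of 14 receptor genes in control and at all 14 with butyrate. The 4 with a butyrate peak alone were BMPR1B, a BMP receptor (−log10 q of 6.57), AMHR2, the receptor of anti-Müllerian hormone (4.61), ACVR1C (2.80) and ACVRL1 (2.05). Over all genes, 9.83% had a promoter peak with butyrate alone. Intragenic H3K9ac peaks were more numerous with butyrate at 8 receptor genes and fewer at 1, beside 47.5% and 3.33% of all genes. Among 25 SMAD regulators and partners the numbers were 23 and 25, and FOXH1, a DNA-binding partner of SMAD2 and SMAD3, had the stronger of the pair with butyrate alone, with a −log10 q of 18.7 against 1.31 at RUNX3. They held more intragenic peaks at 18 genes and fewer at 0. Of 18 known SMAD target genes, 13 and 16 carried one, and among those with butyrate alone were FST, encoding the activin binder follistatin (−log10 q of 8.79), and INHBA, encoding the activin A subunit (2.57). FST and AMHR2 were also among the granulosa markers counted above.

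Intragenic H4K16ac peaks were fewer with butyrate at more genes of the receptor and regulator lists than they were more numerous, which is also the direction over all genes (37.8% fewer and 11.4% more). Counts were lower with butyrate at 8 receptors and higher at 2, lower at 15 regulators and higher at 5, and lower at 2 targets and higher at 2. H4K16ac promoter peaks were present at 20% of all genes in control and 4.91% with butyrate. In control alone they were at 17.8%, and with butyrate alone at 2.71%. Of the 14 receptors, 4 had one in control and 3 with butyrate. BMPR1A and TGFBR3 had one in control alone and ACVRL1 with butyrate alone. At the 25 regulators the numbers were 7 and 4, with E2F4 (−log10 q of 2.99) and EP300 (1.77), a histone acetyltransferase, the strongest of 5 with a control peak alone. TGIF2 and RUNX1 had one with butyrate alone, both at a −log10 q of 0.384. ID3, a BMP target, was the 1 of 18 target genes with a promoter peak in control (0.965), and none had one with butyrate.

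Genes whose intragenic cover was most like that of a member over the 4 histone libraries were found by the distance between log2 values of bases under intragenic peaks per kb, plus 1, among genes of at least 5 kb. The nearest to SMAD3 was TRAM2 (distance 0.61), with 202.4 bp per kb under H3K9ac in the butyrate list against 202.3 at SMAD3. The nearest to SMAD7 was EHD2 (0.55), with 361.7 bp per kb against 504.8. SMAD6 had no close match, and SLC43A2, the nearest (1.39), had 217.1 bp per kb against 375.7. These distances describe 4 libraries and carry no test.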

How the data were processed

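Peak tables of 4 histone and 2 IgG libraries were used, while the input samples are not used here. Tools included, per the submitters' processing notes, CASAVA 1.7 and MACS2 2.1.0, with hg19 (GRCh37) named as build. The aligner is not given in the sources used here. The median distance between the authors' gene starts and RefSeq GRCh38.p14 starts was 66 bp (13600 genes), so positions were read as GRCh38. Per the file headers, the deposited fold is a linear ratio, and p and q are deposited as −log10 values; the deposited score was not used. Peak names of the H4K16ac tables carry the letters k12, and whether another antibody was used cannot be told from the files.

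Rows sharing bases were joined into 1 peak. Of 19970 protein-coding RefSeq genes, 1513 without a strand in the promoter table were left out. Summit fragments and local background were solved from fold and p (at least 99.959% of peaks) after a check on simulated data. Overlap meant at least 1 bp. The text names all 8 SMAD genes and, per pathway list and mark, up to 5 genes with a promoter peak in 1 condition alone, highest −log10 q first; 1 gene that this rule names is not reported here. The members and lists were chosen with earlier results of these data known. Python 3.11.15, pandas 2.3.3, numpy 2.4.6 and scipy 1.17.1 were used. Alternatives were equal list lengths, a q of 0.05, a fold of 5, a 2.5 kb promoter window, unjoined rows and an overlap of at least 50% of either peak. A promoter window at all RefSeq starts and a common lowest p were added after seeing the data.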

Additional observations from a re-analysis of the deposited data

How the results depend on the processing

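No paired analysis was possible because each condition had 1 library per antibody and no result comes from a test. The 7 genes with a control H3K9ac promoter peak were 7 under every alternative run, and with butyrate 7, or 6 with a fold of at least 5, which removed SMAD5. The 11 control intragenic H3K9ac peaks were 0 with a fold of at least 5 and 5 with the 2.5 kb promoter window. The 99 butyrate peaks were 22 at equal list lengths and 6 with a fold of at least 5, and the 7 shared ones 3 and 0. H4K16ac promoter peaks in control, at 3 genes, were at 1 with equal lengths, 1 with a q of 0.05 or less, 0 with a fold of at least 5 and 5 with the 2.5 kb window; with butyrate, at 0 genes, they were at 2 with the 2.5 kb window and 1 with all RefSeq starts. The 23 control intragenic H4K16ac peaks were 10, 9 and 0 with equal lengths, the q limit and the fold limit. The 26 butyrate peaks were 0 with the q limit and 0 with the fold limit, and the 1 shared site was 0 with equal lengths, the q limit, the fold limit and the overlap of at least 50%. H4K16ac peaks under H3K9ac, 3 in control, were 1, 1 and 0 with equal lengths, the q limit and the fold limit, and with butyrate, 10 as reported, they were 3, 0 and 0. In all, 27 alternative values of these results moved by over 1.5 times and 61 did not. Equal list lengths, the q limit and the fold limit leave out peaks. The 2.5 kb window instead moves peaks between classes, and the overlap of at least 50% changes only which peaks count as shared. Summits of 6 to 15 fragments inside the genes limit what the H4K16ac lists can show, and absence of a peak is absence from a list at this depth.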

Other observations

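The 282.75 kb between SMAD6 and SMAD3 on chromosome 15, from 66782850 to 67065601, lie between the genes with the most intragenic H3K9ac peaks of the family in the butyrate list. This stretch held 3 H3K9ac peaks in control and 50 with butyrate, and 0.444% and 11.8% of it lay under them. H3K9ac cover with butyrate was thus lower there than inside SMAD6 (37.6%) and SMAD3 (20.2%). H4K16ac in the same stretch was similar in both lists, with 39 peaks in control and 35 with butyrate and 6.20% and 5.13% covered. Per 10 kb, the butyrate H3K9ac list held 1.77 peaks between the genes, 5.09 inside SMAD6 and 2.55 inside SMAD3.

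Flanks within 10 kb of the 8 genes held 1 H3K9ac peak in control and 9 with butyrate. The control peak was at SMAD6, and the butyrate peaks were 6 at SMAD6 and 3 at SMAD7. Flanks of the 8 genes held 19 H4K16ac peaks in control and 8 with butyrate. Flanking peaks were not counted over all genes.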
